A study of Mus musculus with 6 samples.

Results

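T618I, a membrane-proximal change in the G-CSF receptor CSF3R, was set on top of Q741, a truncation of the receptor's cytoplasmic tail, by comparing the library of T618I/Q741 cells with the library of Q741 cells. All genes with a symbol and with 1 FPKM or more in at least 2 of the 6 libraries of the study were taken, which gave 11188 genes of 23417 with a symbol. FPKM counts fragments relative to transcript length and library depth. The difference for a gene is log2(FPKM + 1) in T618I/Q741 minus the same in Q741, and genes are called higher or lower where it reached 2-fold, a log2 value of 1 or more in size.

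The cells were Kit+ bone marrow cells of WT C57BL/6 mice, held in medium with mSCF, IL-3, IL-6 and FLT3, transduced with retrovirus, sorted as positive by FACS and grown overnight in the same cytokines before RNA was made. The 6 constructs were T618I/Q741, Q741, T618I/W791, W791, T618I and an empty control vector, with 1 library each, and W791 is another tail truncation. The study set out to compare mutants it calls leukemogenic, here T618I alone or joined to a truncation, with non-leukemogenic truncations. A construct with the unmutated receptor was not analysed here, and the labels do not give the species of the CSF3R sequence or name separate animals or cultures. With 1 library a side there is no replicate check, so every difference below compares libraries and carries no error or p-value.

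G-CSF binding brings CSF3R chains together and activates JAK kinases and STAT factors, which drives progenitors along the neutrophil path. T618I is the common CSF3R mutation of chronic neutrophilic leukaemia and activates the receptor without ligand, whereas truncations remove tail segments that shut the signal off. Neutrophils make their granule proteins in a fixed order, with the myeloperoxidase-containing primary granules first, specific granules (lactoferrin, lipocalin) next and gelatinase granules last.

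Sequencing depth, approximated from the smallest steps of the values, was about 24.2 M (mega) fragments for T618I/Q741 and between 19.5 and 41.9 M fragments in the other 5 libraries, Q741 near the low end. The columns summed to 492025 FPKM in T618I/Q741 and 439505 FPKM in Q741. Kit was at 15.1 FPKM in T618I/Q741 and 23.3 FPKM in Q741, and Ptprc, the pan-leukocyte marker CD45, was at 130 FPKM in T618I/Q741 and 120 FPKM in Q741. The neutrophil marker list (10 genes) summed to 35911 FPKM in T618I/Q741 and 3404 FPKM in Q741, with 10 of 10 members higher by 2-fold or more. Most of these sums came from S100a8 and S100a9, which together held 29596 FPKM in T618I/Q741 and 2585 FPKM in Q741. Monocyte and macrophage markers (6 genes) summed to 1056 FPKM in T618I/Q741 and 1471 FPKM in Q741, with none 2-fold apart. Mast cell and basophil markers (8 genes) summed to 824 FPKM in T618I/Q741 and 1828 FPKM in Q741, with 2 higher and 2 lower by 2-fold or more. The sums of megakaryocyte markers (6 genes) were 1543 FPKM in T618I/Q741 and 347 FPKM in Q741, and those of erythroid markers (7 genes) 218 FPKM in T618I/Q741 and 94.5 FPKM in Q741. Of the 7 erythroid markers 6 were higher by 2-fold or more. The transferrin receptor gene Tfrc went the other way, at 41.9 FPKM in T618I/Q741 and 83.8 FPKM in Q741, most of the Q741 sum. Lymphoid cells left little signal: B cell markers summed to 5.42 FPKM in T618I/Q741 and 8.94 FPKM in Q741, and 1 of 5 B cell and 1 of 5 T and NK cell markers passed the filter. In bulk RNA, fewer cells of a type and less RNA per cell cannot be told apart.

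Adding T618I to Q741 went with very high neutrophil transcripts. Of the 11188 genes, 530 (4.74%) were higher and 211 (1.89%) were lower by 2-fold or more in T618I/Q741 than in Q741. At 4-fold the counts were 127 higher and 18 lower. With W791 in place of Q741, 399 of the 11188 genes were higher and 210 lower by 2-fold or more. With vector in its place 491 were higher and 334 lower. These are the counts over all genes for lists that are set against W791 or vector below. The 530 higher genes carried 16.9% of all FPKM in T618I/Q741 and 3.42% in Q741, and the 211 lower genes carried 0.473% in T618I/Q741 and 1.57% in Q741. The median difference over all genes was -0.16, with 34.5% of genes above 0, so a difference of 0 for a list lies above the typical gene. Median-ratio scaling, which moves that median by 0.14, gave 653 higher and 131 lower genes, so that the share of calls in the higher direction was 83.3% with it and 71.5% without. Among the 756 genes at 100 FPKM or more in either library, 10.6% were higher and 0.794% lower, and among the 2356 genes whose higher value lay from 1 to below 5 FPKM the shares were 4.29% higher and 1.99% lower. Libraries without T618I lay much closer together: in W791 against vector 0.268% of genes were higher and 0.304% lower, and in Q741 against vector 0.152% higher and 0.822% lower.

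**Figure D1:**
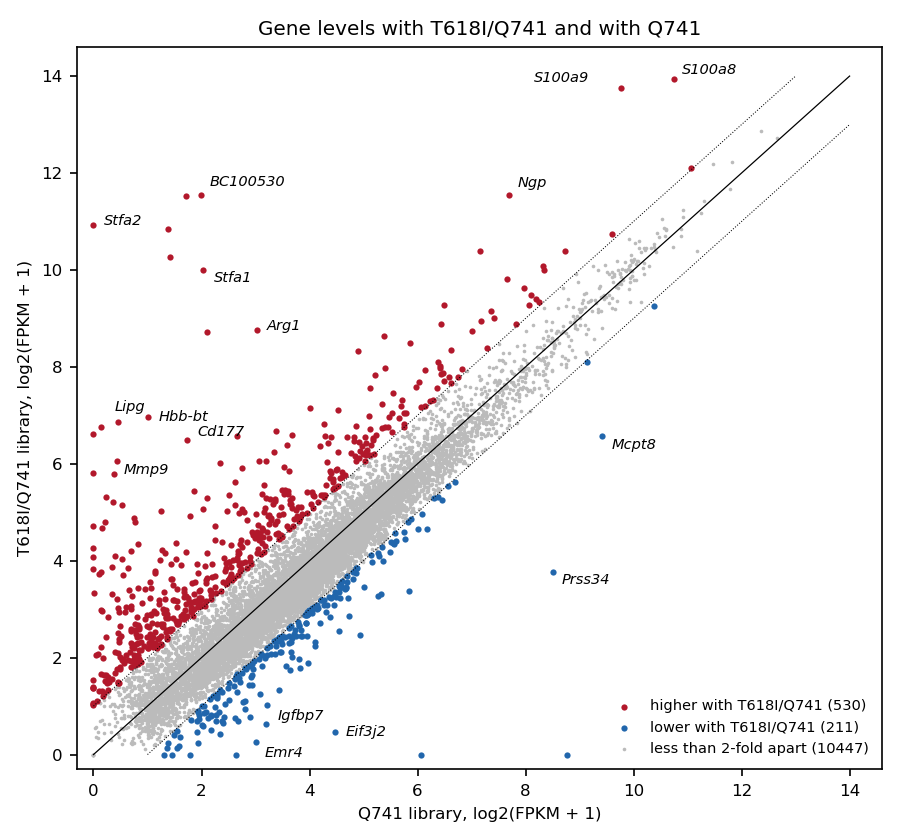
Each point is 1 of 11188 genes, with log2(FPKM + 1) in the T618I/Q741 library on the y axis and in the Q741 library on the x axis; the solid line marks equal levels and the dotted lines 2-fold. The 530 higher genes (red) reach far above the line, led by stefin A and calprotectin genes, while the 211 lower genes (blue) include Prss34 and Mcpt8, and the 2 rightmost blue points at the bottom edge are the small RNA genes Snora68 and Snora28, listed at 0 in T618I/Q741.

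The highest differences of all belonged to the stefin A cluster on mouse chromosome 16, a run of genes for small cystatin-type inhibitors of cathepsin-like cysteine proteases. Of the 10 tested members of this list 9 were higher, with a median log2 difference of 8.41 in T618I/Q741 against Q741. Stfa2 was at 1960 FPKM in T618I/Q741 and listed at 0 in Q741. It stood at 1115 FPKM in T618I/W791 and 0.538 FPKM in W791, and at 601 FPKM in T618I and 1.39 FPKM in vector. BC100530 was at 3006 FPKM in T618I/Q741 and 2.97 FPKM in Q741, a log2 difference of 9.56, with at least 1873 FPKM in every T618I library and at most 7.66 FPKM in the others. The libraries with T618I and those without did not overlap for either gene. Stfa2l1 was at 1832 FPKM in T618I/Q741 and 1.61 FPKM in Q741 (log2 difference 9.46), Stfa3 at 1232 FPKM in T618I/Q741 and 1.68 FPKM in Q741 (8.84) and Stfa1 at 1026 FPKM in T618I/Q741 and 3.10 FPKM in Q741 (7.97). T618I/Q741 was not the highest library for every gene of the cluster. BC100530 was higher in T618I/W791, at 3990 FPKM. For Stfa1 T618I/Q741 was the lowest of the T618I libraries, since T618I/W791 held 1469 FPKM and T618I 1553 FPKM. The same held for Gm5416, at 25.4 FPKM in T618I/Q741, 65.1 FPKM in T618I/W791 and 51.8 FPKM in T618I. The 9 higher members together made up 2.53% of all FPKM in T618I/Q741. Cstb, the stefin B gene, which lies elsewhere in the genome and encodes a related inhibitor of wide expression, was at 288 FPKM in T618I/Q741 and 320 FPKM in Q741. Of the 50-base stretches of the longest transcript, 26.9% in Stfa1, 15.9% in Stfa2, 24.6% in Stfa2l1 and 33.5% in BC100530 also occur in another gene, so the split of reads among these copies is uncertain, whereas Stfa3 shared 0.

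The 150 bases before the RefSeq starts (GRCm38.p6) of the 4 stefin A genes with a promoter in the table are shown because these genes differ most between the libraries and their upstream sequences are close copies, with capitals for AGATAA (the GATA letters) and TTGCNNAA (the C/EBP letters) on either strand. Each is written 5′ to 3′ on the strand of its gene.
Stfa1: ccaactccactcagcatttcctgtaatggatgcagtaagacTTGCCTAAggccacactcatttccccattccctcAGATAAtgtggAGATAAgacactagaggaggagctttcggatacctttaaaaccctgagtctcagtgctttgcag
Stfa2: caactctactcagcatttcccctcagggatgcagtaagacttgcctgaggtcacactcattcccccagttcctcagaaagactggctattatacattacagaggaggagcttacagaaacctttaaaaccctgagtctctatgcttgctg
Stfa2l1: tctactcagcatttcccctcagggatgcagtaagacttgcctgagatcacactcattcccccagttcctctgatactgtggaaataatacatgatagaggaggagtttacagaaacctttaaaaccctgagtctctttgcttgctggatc
Stfa3: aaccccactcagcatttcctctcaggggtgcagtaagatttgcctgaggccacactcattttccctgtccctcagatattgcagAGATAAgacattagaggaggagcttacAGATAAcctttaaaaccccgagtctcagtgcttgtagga
The coordinates are chr16:36276998-36277147 (plus strand) for Stfa1, chr16:36408364-36408513 (minus) for Stfa2, chr16:36156661-36156810 (plus) for Stfa2l1 and chr16:36455393-36455542 (minus) for Stfa3. Over the 300-base promoters, Stfa2 and Stfa2l1 were identical at 90.5% of aligned positions, and the other 5 pairs at 79.2% to 81.0%. Stfa1 and Stfa3 each hold 2 AGATAA matches, and Stfa2 and Stfa2l1 hold none in this window. Those letters occur in 11.4% of all 27025 promoters of the table and in 6.36% of the 8505 promoters of tested genes. Their share was 10.3% in promoters of higher genes and 11.4% in those of lower genes.

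Calprotectin, the pair of calcium- and zinc-binding proteins S100A8 and S100A9 that fills the neutrophil cytosol, came from the most abundant transcripts of T618I/Q741. S100a8 (mm10, chr3:90668978-90670035) was at 15815 FPKM in T618I/Q741 and 1712 FPKM in Q741, a log2 difference of 3.21. The gene was at 13614 FPKM in T618I/W791 and 1789 FPKM in W791, and at 11020 FPKM in T618I and 1178 FPKM in vector. S100a9 (mm10, chr3:90692632-90695721) was at 13781 FPKM in T618I/Q741 and 873 FPKM in Q741, a log2 difference of 3.98. In the other pairs S100a9 was at 11171 FPKM in T618I/W791 and 1110 FPKM in W791, and at 7240 FPKM in T618I and 867 FPKM in vector. In both genes T618I/Q741 was the highest of all 6 libraries. Their neighbour S100a6, a gene for a calcium sensor of many cell types, was at 786 FPKM in T618I/Q741 and 249 FPKM in Q741. S100a4, a gene of motile and monocytic cells, went the other way, at 273 FPKM in T618I/Q741 and 562 FPKM in Q741. Of the 8 tested S100 genes 3 were thus higher and 1 lower.

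Granule genes differed by granule type. Of 24 tested genes for specific and gelatinase granule proteins, 17 were higher and 0 lower, with a median log2 difference of 1.67 and 23 of 24 above 0. The 17 included Arg1, a granule enzyme of human neutrophils but a product of macrophages in mice. In T618I/W791 against W791 the list had 9 higher and 1 lower (2.34% and 4.26% of all genes), with a median of 0.12. In T618I against vector it had 10 higher and 1 lower (2.73% and 1.27% of all genes), with a median of 0.71. Of 16 primary granule genes, 1 was higher and 0 lower in T618I/Q741 against Q741, and the median lay at -0.10, which median-ratio scaling turned to 0.05. The higher one was Elane, neutrophil elastase, at 714 FPKM in T618I/Q741 and 275 FPKM in Q741 (log2 difference 1.37). The other 4 libraries held between 247 and 306 FPKM of Elane. Mpo, myeloperoxidase, was at 588 FPKM in T618I/Q741 and 801 FPKM in Q741, and Prtn3, proteinase 3, at 634 FPKM in T618I/Q741 and 529 FPKM in Q741.

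Ngp, neutrophilic granule protein, was at 2988 FPKM in T618I/Q741 and 206 FPKM in Q741, a log2 difference of 3.85. It was at 704 FPKM in T618I/W791 and 244 FPKM in W791, and at 251 FPKM in T618I and 151 FPKM in vector. Ltf, lactoferrin, which binds iron, was at 320 FPKM in T618I/Q741 and 28.7 FPKM in Q741 (3.43), at 95.8 FPKM in T618I/W791 and 43.7 FPKM in W791, and at 23.3 FPKM in T618I and 24.2 FPKM in vector. For Ltf the libraries with T618I therefore overlapped those without. Camp, the cathelicidin precursor, was at 60.5 FPKM in T618I/Q741 and 10.5 FPKM in Q741, and no other library exceeded 14.3 FPKM. Lcn2, the siderophore-binding lipocalin, was at 1339 FPKM in T618I/Q741 and 141 FPKM in Q741 (3.24), and all T618I libraries, the lowest at 628 FPKM, exceeded all others. Mmp9, gelatinase B, was at 54.6 FPKM in T618I/Q741 and 0.296 FPKM in Q741 (5.42), with 15.1 FPKM in T618I/W791 and 10.7 FPKM in T618I. Cd177, a neutrophil surface and specific granule glycoprotein, was at 89.0 FPKM in T618I/Q741 and 2.33 FPKM in Q741 (4.76).

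C/EBP factors, of which C/EBP epsilon is required for specific granules, bind sites with the letters TTGCNNAA, and 8 of the 20 specific and gelatinase granule genes with a RefSeq promoter (40%) held these letters on either strand in the 300-base window. The share was 8.42% of the promoters of tested genes and 10.8% of all promoters. It was 13.7% in promoters of higher genes and 13.3% in those of lower genes. In the mast cell and basophil list, with more lower than higher genes, it was 28.6%. Within the specific and gelatinase granule list it was 6 of 15 higher members and 2 of 5 others. The 6 higher members are shown with 60 bases around 1 match each, in capitals, and Ngp and Fcnb hold another match outside the printed window.
Ngp: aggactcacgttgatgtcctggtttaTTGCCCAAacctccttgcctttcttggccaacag
Ltf: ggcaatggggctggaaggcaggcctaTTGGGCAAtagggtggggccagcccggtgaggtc
Lcn2: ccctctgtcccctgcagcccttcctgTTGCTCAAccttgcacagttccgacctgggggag
Mmp8: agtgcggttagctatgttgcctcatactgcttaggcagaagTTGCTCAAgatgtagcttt
Adam8: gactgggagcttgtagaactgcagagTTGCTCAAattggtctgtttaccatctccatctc
Fcnb: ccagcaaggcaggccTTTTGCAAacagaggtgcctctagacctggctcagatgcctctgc
They lie, on GRCm38.p6, at chr9:110419644-110419703 (plus strand) for Ngp, chr9:111019191-111019250 (plus) for Ltf, chr2:32387922-32387981 (minus) for Lcn2, chr9:7558369-7558428 (plus) for Mmp8, chr7:139992748-139992807 (minus) for Adam8 and chr2:28085069-28085128 (minus) for Fcnb. Mmp8, collagenase 2, was at 1344 FPKM in T618I/Q741 and 424 FPKM in Q741. Adam8, a membrane metalloprotease, was at 159 FPKM in T618I/Q741 and 51.7 FPKM in Q741, and Fcnb, ficolin B, at 33.1 FPKM in T618I/Q741 and 15.7 FPKM in Q741. A match is a description of letters and not a bound site.

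Genes of the mature neutrophil surface were partly higher, with 8 of 26 higher, 1 lower and a median of 0.61. In T618I/W791 against W791 5 were higher and 2 lower (2.34% and 4.26% of all genes), with a median of 0.01 and 13 of 26 below 0. In T618I against vector 7 were higher and 0 lower (2.73% and 1.27% of all genes), with a median of 0.59. Retnlg, a secreted resistin-like protein of neutrophils, was at 107 FPKM in T618I/Q741 and 0.102 FPKM in Q741, a log2 difference of 6.62. The chemokine receptor gene Cxcr2 was at 102 FPKM in T618I/Q741 and 9.36 FPKM in Q741 (3.31), and the formyl peptide receptor gene Fpr1 at 48.0 FPKM in T618I/Q741 and 5.11 FPKM in Q741. For each of these 3 genes T618I/Q741 was highest and every T618I library exceeded every other library. Ptafr, the receptor of platelet-activating factor, was the 1 gene lower against Q741, at 18.5 FPKM in T618I/Q741 and 39.5 FPKM in Q741. Of 7 tested NADPH oxidase subunits none reached 2-fold, and the median was 0.57. Csf3r, the mouse receptor gene, was at 95.9 FPKM in T618I/Q741 and 56.7 FPKM in Q741 (0.75). Csf3r was at 38.8 FPKM in T618I/W791 and 52.8 FPKM in W791, and at 69.4 FPKM in T618I and 53.1 FPKM in vector, and whether construct reads align to this gene was not tested.

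Among 18 granulocytic transcription factor genes 3 were higher and 0 lower, against 8 and 1 with vector in place of Q741. Cebpe, the factor of late granulocyte maturation, was at 31.0 FPKM in T618I/Q741 and 7.86 FPKM in Q741 (1.85). Mxd1, which opposes MYC in maturing myeloid cells, was at 74.5 FPKM in T618I/Q741 and 22.0 FPKM in Q741, and the retinoic acid receptor gene Rara at 45.6 FPKM in T618I/Q741 and 22.0 FPKM in Q741 (1.02). Rara was the one of the 3 with the opposite sign elsewhere, at 14.8 FPKM in T618I/W791 and 24.9 FPKM in W791.

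JAK-STAT feedback and target genes lay above the typical gene, with 5 of 25 higher, 1 lower, 21 above 0 and a median of 0.46. With W791 in place of Q741 3 were higher and 2 lower, and with vector 8 were higher and 1 lower. Of the feedback inhibitors, Socs3 was at 156 FPKM in T618I/Q741 and 73.8 FPKM in Q741 (1.07), Cish at 33.6 FPKM in T618I/Q741 and 10.1 FPKM in Q741 (1.64) and Socs2 at 7.83 FPKM in T618I/Q741 and 2.85 FPKM in Q741 (1.20). Gadd45g, a stress gene induced by cytokines, was at 33.1 FPKM in T618I/Q741 and 7.98 FPKM in Q741. Ccnd1, cyclin D1, was the lower one, at 5.53 FPKM in T618I/Q741 and 17.3 FPKM in Q741. The same list had 1 higher, 5 lower and a median of -0.25 in T618I/W791 against W791, where 2.34% of all genes were higher and 4.26% lower. It had 4 higher, 3 lower and a median of 0.42 in T618I against vector, where 2.73% of all genes were higher and 1.27% lower. The STAT letters TTCNNNGAA stood in 34 of the 379 higher genes with a promoter (8.97%), in 5.06% of the promoters of lower genes and in 6.97% of those of tested genes. The AP-1 letters TGANTCA stood in 12.7% of the promoters of higher genes, in 6.33% of those of lower genes and in 5.06% of those of tested genes.

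**Figure D2:**
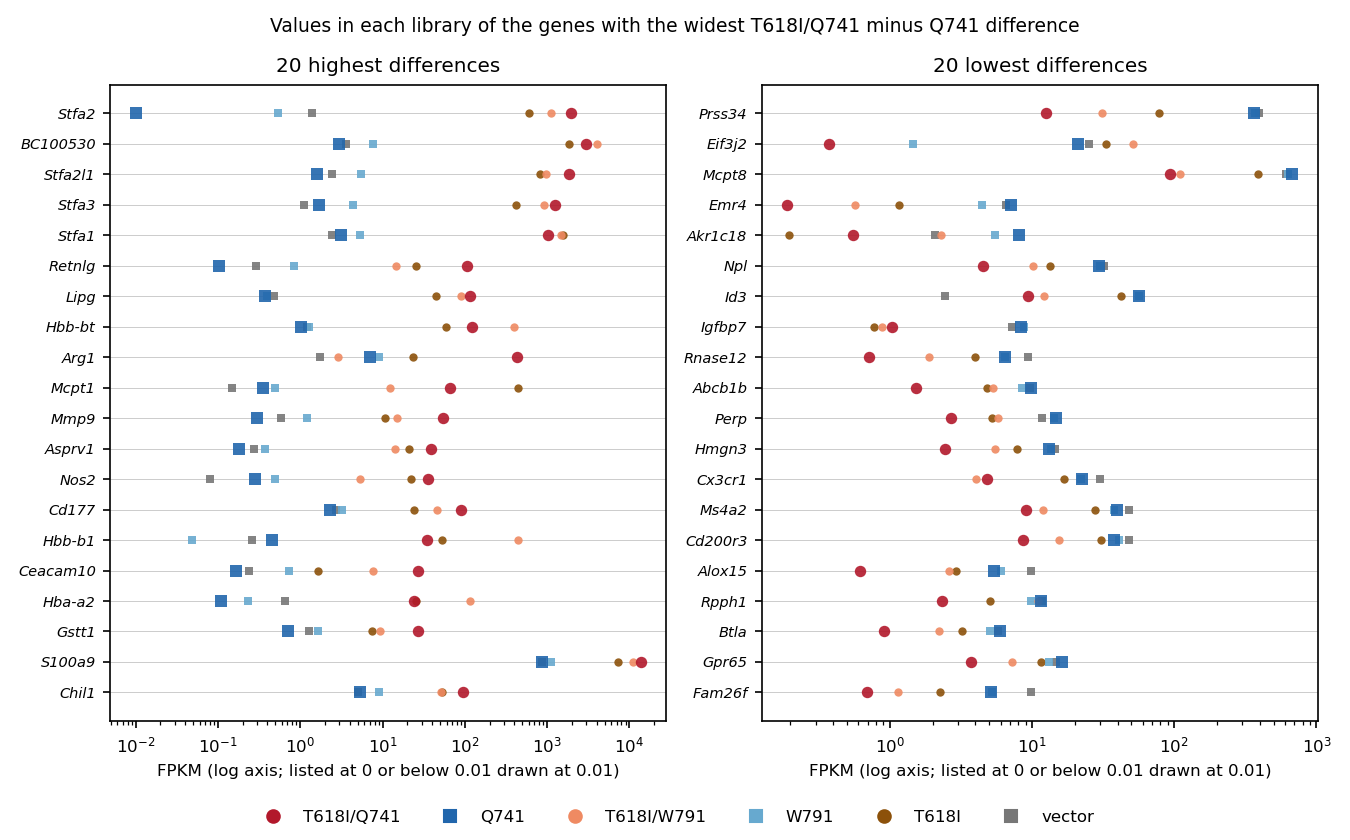
FPKM on a log axis in each of the 6 libraries for the 20 genes with the highest (left) and the 20 with the lowest (right) difference at 5 FPKM or more, predicted and small RNA genes left out, between T618I/Q741 (large red circles) and Q741 (large blue squares); circles are libraries with T618I and squares those without. Circles and squares do not overlap in 19 of the 20 highest and 16 of the 20 lowest genes, against 26.2% of all genes tested and partly set by choosing genes for their difference, while Arg1 lies low in T618I/W791 (2.87 FPKM), Id3 lies low in vector (2.45 FPKM) and Eif3j2 follows no such split.

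Arg1 (mm10, chr10:24915221-24927484), which degrades arginine and is a product of macrophages in mice and a granule enzyme of human neutrophils, was highest in T618I/Q741. It stood at 430 FPKM in T618I/Q741 and 7.13 FPKM in Q741, a log2 difference of 5.73. It was at 2.87 FPKM in T618I/W791 and 8.96 FPKM in W791, and at 23.7 FPKM in T618I and 1.73 FPKM in vector. The gene for the cationic amino acid transporter Slc7a2, which imports arginine, was at 15.2 FPKM in T618I/Q741 and 1.36 FPKM in Q741, and between 0.309 and 1.21 FPKM in the other 4 libraries. Nos2, the inducible nitric oxide synthase, which uses the same substrate, was at 36.0 FPKM in T618I/Q741 and 0.281 FPKM in Q741 (4.85), and was also higher with T618I/W791 (5.34 FPKM against 0.493 FPKM in W791) and with T618I (22.3 FPKM against 0.0807 FPKM in vector). These are the 3 higher genes among 13 of arginine metabolism.

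Macrophage genes were divided. Of 38 monocyte and macrophage genes 7 were higher and 2 lower, with a median of -0.06 that median-ratio scaling turned to 0.09. Genes for matrix and lipid-binding proteins were among the higher ones: Fn1, fibronectin, was at 150 FPKM in T618I/Q741 and 39.4 FPKM in Q741 (1.90), Apoe, apolipoprotein E, at 323 FPKM in T618I/Q741 and 97.7 FPKM in Q741 (1.71), and the fatty acid binding protein gene Fabp4 at 64.5 FPKM in T618I/Q741 and 18.9 FPKM in Q741 (1.72). Spp1, osteopontin, was at 1720 FPKM in T618I/Q741 and 771 FPKM in Q741, and Ctsl, cathepsin L, at 572 FPKM in T618I/Q741 and 163 FPKM in Q741. Apoe was nonetheless highest in vector, at 384 FPKM, so its place against Q741 does not hold against vector. The defining monocyte genes were not among the higher ones. Csf1r, the M-CSF receptor, was at 185 FPKM in T618I/Q741 and 284 FPKM in Q741, and the monocyte chemokine receptor gene Ccr2 at 271 FPKM in T618I/Q741 and 340 FPKM in Q741. Cx3cr1, the fractalkine receptor, was lower, at 4.82 FPKM in T618I/Q741 and 22.5 FPKM in Q741 (-2.01). Emr4, a macrophage adhesion receptor, was at 0.190 FPKM in T618I/Q741 and 7.07 FPKM in Q741 (-2.76).

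The same list was lower where T618I was added to W791. There, 0 of the 38 monocyte and macrophage genes were higher and 23 were lower (2.34% and 4.26% of all genes), with a median of -1.18. Of 22 MHC class II and dendritic genes, 1 was higher and 3 lower in T618I/Q741 against Q741, against 0 and 17 in T618I/W791 against W791. Of 45 interferon response genes the counts were 2 higher and 4 lower in T618I/Q741 against Q741, and 0 and 14 in T618I/W791 against W791. Cd74, the invariant chain of MHC class II, was at 593 FPKM in T618I/Q741 and 779 FPKM in Q741, and at 180 FPKM in T618I/W791 and 899 FPKM in W791. In T618I against vector these lists had 1, 0 and 0 higher and 4, 7 and 18 lower members. The counts for T618I/Q741 depend on the library set against it: with vector in place of Q741, 4 of the monocyte and macrophage genes were higher and 8 lower, 0 and 6 of the MHC class II and dendritic genes, and 0 and 10 of the interferon response genes. No difference between pairs was tested.

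Matrix metalloproteinases, a family chosen after the values were seen, had 6 of 8 tested genes higher in T618I/Q741 against Q741, with a median of 1.73. Besides Mmp9 and Mmp8 these were Mmp12, macrophage elastase, at 244 FPKM in T618I/Q741 and 69.2 FPKM in Q741, Mmp13 at 32.5 FPKM in T618I/Q741 and 5.76 FPKM in Q741, Mmp19 at 35.0 FPKM in T618I/Q741 and 15.3 FPKM in Q741, and Mmp25, a membrane-bound enzyme of neutrophils, at 4.41 FPKM in T618I/Q741 and 0.422 FPKM in Q741. Mmp14 was below 0, at 22.2 FPKM in T618I/Q741 and 38.2 FPKM in Q741. The family in T618I/W791 against W791 had 1 higher, 1 lower and a median of -0.29. Class I genes of the H2-Q group, also chosen after the values were seen, were 5 of 5 higher, such as H2-Q7 at 38.3 FPKM in T618I/Q741 and 3.29 FPKM in Q741. H2-Q7 held between 3.70 and 6.51 FPKM in the other 4 libraries, and 27.1% of its 50-base stretches occur in other genes.

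**Figure D3:**
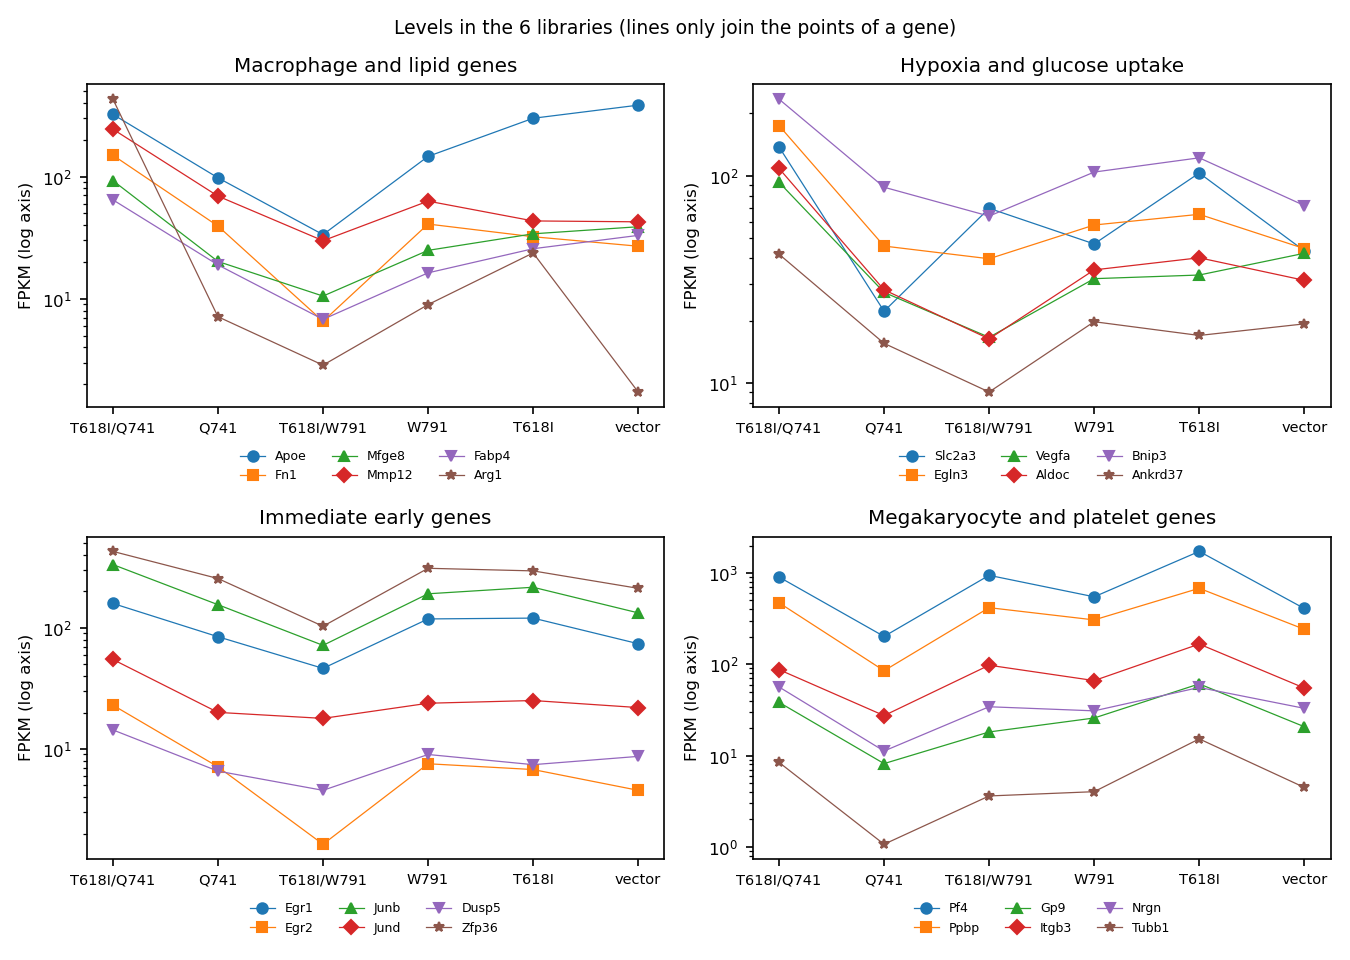
FPKM on a log axis in the 6 libraries for 6 genes each of 4 groups; lines only join the points of a gene. The genes were picked as examples, and each macrophage and lipid gene drawn is among those with opposite directions in the Q741 and W791 pairs. The drawn macrophage, hypoxia and immediate early genes are mostly highest in T618I/Q741 and lowest in T618I/W791, Apoe being highest in vector. The drawn megakaryocyte genes have their lowest point in Q741 itself. Of all 38 monocyte and macrophage genes tested, 19 were below 0 in T618I/Q741 against Q741.

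Immediate early genes, the first transcripts after a growth factor signal, had 4 of 23 higher, 0 lower, 20 above 0 and a median of 0.66 in T618I/Q741 against Q741. With W791 in place of Q741 2 were higher and the median was 0.35, and with vector 7 were higher and 1 lower, with a median of 0.76. Egr2, a zinc finger factor of myeloid cells, was at 23.0 FPKM in T618I/Q741 and 7.12 FPKM in Q741 (1.56), and Junb, an AP-1 subunit, at 334 FPKM in T618I/Q741 and 156 FPKM in Q741 (1.10). Both pointed the other way on W791, with Egr2 at 1.63 FPKM in T618I/W791 and 7.54 FPKM in W791, and Junb at 71.8 FPKM in T618I/W791 and 191 FPKM in W791. The list had 0 higher, 14 lower and a median of -1.22 in T618I/W791 against W791, and 1 higher, 0 lower and a median of 0.44 in T618I against vector.

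Glycolysis and hypoxia genes were all above 0, 27 of 27, with 8 higher, 0 lower and a median of 0.62. The glucose transporter gene Slc2a3 was at 138 FPKM in T618I/Q741 and 22.2 FPKM in Q741 (2.58). Egln3, an oxygen-sensing prolyl hydroxylase induced by hypoxia, was at 175 FPKM in T618I/Q741 and 45.8 FPKM in Q741 (1.91), and Vegfa, the angiogenic growth factor, at 93.0 FPKM in T618I/Q741 and 27.3 FPKM in Q741 (1.73). Bnip3, a mitophagy receptor, was at 234 FPKM in T618I/Q741 and 88.0 FPKM in Q741, and Aldoc, an aldolase, at 109 FPKM in T618I/Q741 and 28.1 FPKM in Q741. The glycolytic enzymes of high level lay nearer to equal, with Gapdh at 2133 FPKM in T618I/Q741 and 1480 FPKM in Q741, and Ldha at 715 FPKM in T618I/Q741 and 702 FPKM in Q741. The list had 0 higher, 2 lower and a median of -0.24 in T618I/W791 against W791, and in T618I against vector a median of 0.30. The HIF letters ACGTGC stood in 8 of 24 promoters of the list (33.3%), in 2 of 5 higher members and 6 of 19 others, and in 8.36% of promoters of tested genes.

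Lipid storage and lipase genes had 10 of 20 higher and 0 lower, with a median of 0.85, and 6 higher with vector in place of Q741. Lipg, endothelial lipase, was at 116 FPKM in T618I/Q741 and 0.375 FPKM in Q741 (6.41), at 90.6 FPKM in T618I/W791 and 0.400 FPKM in W791, and at 44.4 FPKM in T618I and 0.482 FPKM in vector. All 3 pairs thus showed Lipg higher with T618I, but not the list. In T618I/W791 against W791 the list had 3 higher and 4 lower (2.34% and 4.26% of all genes), with a median of -0.31. In T618I against vector it had 3 higher and 1 lower (2.73% and 1.27% of all genes), with a median of 0.07. Dgat2, which makes triglyceride, was at 36.7 FPKM in T618I/Q741 and 9.33 FPKM in Q741. Hilpda, a lipid droplet protein induced by hypoxia, was at 37.5 FPKM in T618I/Q741 and 9.29 FPKM in Q741, and Mgll, monoglyceride lipase, at 9.85 FPKM in T618I/Q741 and 1.09 FPKM in Q741. Of 24 sterol and fatty acid synthesis genes none reached 2-fold in either direction.

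Proliferation genes sat below the typical gene. Of 34 DNA replication and mitosis genes 31 were below 0, with a median of -0.64 against -0.16 for all genes, though 1 was higher and 1 lower by 2-fold, and 1 higher and 6 lower with vector in place of Q741. The lower one, the survivin gene Birc5, was at 39.0 FPKM in T618I/Q741 and 82.4 FPKM in Q741 (-1.06). The higher one, Cdkn1a, encodes the cell cycle inhibitor p21, and it was at 158 FPKM in T618I/Q741 and 77.0 FPKM in Q741 (1.03). Top2a, topoisomerase of dividing cells, was at 65.7 FPKM in T618I/Q741 and 115 FPKM in Q741. It was at 129 FPKM in T618I/W791 and 104 FPKM in W791, where the list median was 0.36. With median-ratio scaling the median of the list in T618I/Q741 against Q741 was -0.50. Genes of the unfolded protein and integrated stress response had 1 higher, 0 lower and a median of -0.47.

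Erythroid genes had 15 of 28 higher and 1 lower, with 26 above 0 and a median of 1.03. With W791 in place of Q741 9 were higher and the median was 0.54, and a pseudocount of 5 gave a median of 0.40. Hbb-bt, a beta globin gene, was at 124 FPKM in T618I/Q741 and 1.02 FPKM in Q741 (5.95), and at 396 FPKM in T618I/W791 and 1.27 FPKM in W791. Klf1, the erythroid master factor, was at 4.98 FPKM in T618I/Q741 and 0.708 FPKM in Q741. Gata1 was at 17.9 FPKM in T618I/Q741 and 7.22 FPKM in Q741, against 13.1 FPKM in W791 and 11.6 FPKM in vector. Tfrc, the transferrin receptor, which erythroid precursors carry at high level, was at 41.9 FPKM in T618I/Q741 and 83.8 FPKM in Q741, and at 160 FPKM in T618I/W791 and 77.1 FPKM in W791. In T618I/W791 against W791, 21 of the 28 genes were higher, with a median of 1.88. Hbb-bt shares 58.3% of its 50-base stretches with another gene and Hba-a2 86.9%, so single globin values are uncertain. Cpox, an enzyme of heme synthesis, was at 35.1 FPKM in T618I/Q741 and 8.98 FPKM in Q741, 1 of 2 higher among 18 heme synthesis genes.

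Megakaryocyte and platelet genes had 16 of 23 higher and 0 lower, with a median of 1.26, and this rests on the Q741 library. Pf4, platelet factor 4, was at 904 FPKM in T618I/Q741 and 202 FPKM in Q741 (2.16), at 943 FPKM in T618I/W791 and 549 FPKM in W791, and at 1725 FPKM in T618I and 409 FPKM in vector. Ppbp, another platelet chemokine, was at 472 FPKM in T618I/Q741 and 85.1 FPKM in Q741, against 306 FPKM in W791 and 242 FPKM in vector. Gp9, a subunit of the von Willebrand factor receptor, was at 38.4 FPKM in T618I/Q741 and 8.18 FPKM in Q741, against 25.8 FPKM in W791 and 20.7 FPKM in vector. Q741 was the lowest of the 6 libraries for all 3 genes. The list had 0 higher and 0 lower in T618I/W791 against W791, and 16 higher and 0 lower in T618I against vector. In Q741 against W791 0 of the 23 genes were higher and 16 lower (0.0447% and 0.67% of all genes). With W791 in place of Q741, T618I/Q741 had 1 higher, 1 lower and a median of 0.22, and with vector in its place 2 higher, 0 lower and a median of 0.38.

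Mast cell and basophil genes had members on both sides. Of 25 genes 4 were higher and 9 lower, with a median of -0.59. The basophil proteases were among the lowest of all genes: Prss34 (mm10, chr17:25298394-25300165) was at 12.6 FPKM in T618I/Q741 and 363 FPKM in Q741 (-4.74), and Mcpt8 at 93.7 FPKM in T618I/Q741 and 678 FPKM in Q741 (-2.84). Ms4a2, a chain of the high-affinity IgE receptor, was at 9.01 FPKM in T618I/Q741 and 39.3 FPKM in Q741, and Il4 at 0.978 FPKM in T618I/Q741 and 3.73 FPKM in Q741. The 4 higher members encode granule proteases of mast cells and lymphocytes: Mcpt1 was at 65.4 FPKM in T618I/Q741 and 0.354 FPKM in Q741 (5.62), and Mcpt2 at 188 FPKM in T618I/Q741 and 33.7 FPKM in Q741 (2.45). Gzmb, granzyme B, which lies in the same run of genes on chromosome 14, was at 126 FPKM in T618I/Q741 and 33.1 FPKM in Q741. Mcpt4, a mast cell chymase, was at 39.7 FPKM in T618I/Q741 and 15.8 FPKM in Q741 (1.27). Between the ends of that run 8 of 17 tested genes were higher, against 4.74% of all genes. The run was drawn by joining neighbouring higher genes, which sets part of that share. The lower gene Mcpt8 lies within it. Not every mast cell protease gene stood higher, with Cpa3, carboxypeptidase A3, at 313 FPKM in T618I/Q741 and 557 FPKM in Q741 (-0.83). The highest values of Mcpt1 and Mcpt2 were in T618I, at 444 FPKM and 847 FPKM. In T618I/W791 against W791 the list had 3 higher and 11 lower, with Prss34 at 31.1 FPKM in T618I/W791 and 371 FPKM in W791. In T618I against vector it had 4 higher, 2 lower and a median of 0.02. There Prss34 was at 78.7 FPKM in T618I and 393 FPKM in vector, and Mcpt8 at 386 FPKM in T618I and 614 FPKM in vector. In T618I/Q741 against Q741, 1 of 10 eosinophil genes was higher and 3 lower. The 3 tested Akr1c reductase genes were all lower, such as Akr1c18 at 0.550 FPKM in T618I/Q741 and 8.12 FPKM in Q741. With vector in place of Q741 0 of the 3 were lower, with a median of -0.68, and Akr1c18 was at 2.08 FPKM in vector.

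For 133 of the 211 lower genes (63.0%) all 3 libraries with T618I lay below all 3 without it, against 18.2% of all genes tested. All 3 lay above for 327 of the 530 higher genes (61.7%), against 8.04% of all genes. Choosing genes for their difference between T618I/Q741 and Q741 sets part of both shares. The insulin-like growth factor binding protein gene Igfbp7 was at 1.03 FPKM in T618I/Q741 and 8.32 FPKM in Q741 (-2.20), and no T618I library exceeded 1.03 FPKM. Id3, an inhibitor of basic helix-loop-helix factors, was at 9.36 FPKM in T618I/Q741 and 56.2 FPKM in Q741 (-2.46), yet at 42.1 FPKM in T618I and 2.45 FPKM in vector. With vector in place of Q741 Id3 was therefore above 0, at 1.59. Eif3j2 was at 0.374 FPKM in T618I/Q741 and 21.2 FPKM in Q741, but it shares 91.8% of its 50-base stretches with its copy Eif3j1, so its value is uncertain. Stem and progenitor genes had 4 higher and 3 lower of 24, but 0 higher and 3 lower with W791 in place of Q741, and 3 higher and 7 lower with vector. Their median was -0.02, which median-ratio scaling turned to 0.11. Bcl2, the survival gene, was at 2.55 FPKM in T618I/Q741 and 7.68 FPKM in Q741.

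Inflammatory, zinc-binding and stress genes had members on both sides. Of 27 chemokine and inflammatory cytokine genes 6 were higher and 2 lower, with a median of 0.24. Il1rn, the natural antagonist of IL-1, was at 42.8 FPKM in T618I/Q741 and 10.2 FPKM in Q741, and Cxcl3, a ligand of CXCR2, at 7.73 FPKM in T618I/Q741 and 0.858 FPKM in Q741. Cxcl10, an interferon-induced chemokine, was lower, at 1.15 FPKM in T618I/Q741 and 6.01 FPKM in Q741. The metallothionein gene Mt2, whose product binds zinc, was at 361 FPKM in T618I/Q741 and 57.2 FPKM in Q741, at 387 FPKM in T618I/W791 and 90.8 FPKM in W791, and at 458 FPKM in T618I and 61.4 FPKM in vector, which placed all T618I libraries above the others. Its list, with zinc transporters, had 3 of 9 higher and 1 lower. Of 8 Schlafen genes, growth regulators of leukocytes, 2 were higher, among them Slfn1 at 42.5 FPKM in T618I/Q741 and 2.64 FPKM in Q741. Of 19 p53 target genes 3 were higher and 1 lower, the lower one being Perp at 2.68 FPKM in T618I/Q741 and 14.7 FPKM in Q741.

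**Figure D4:**
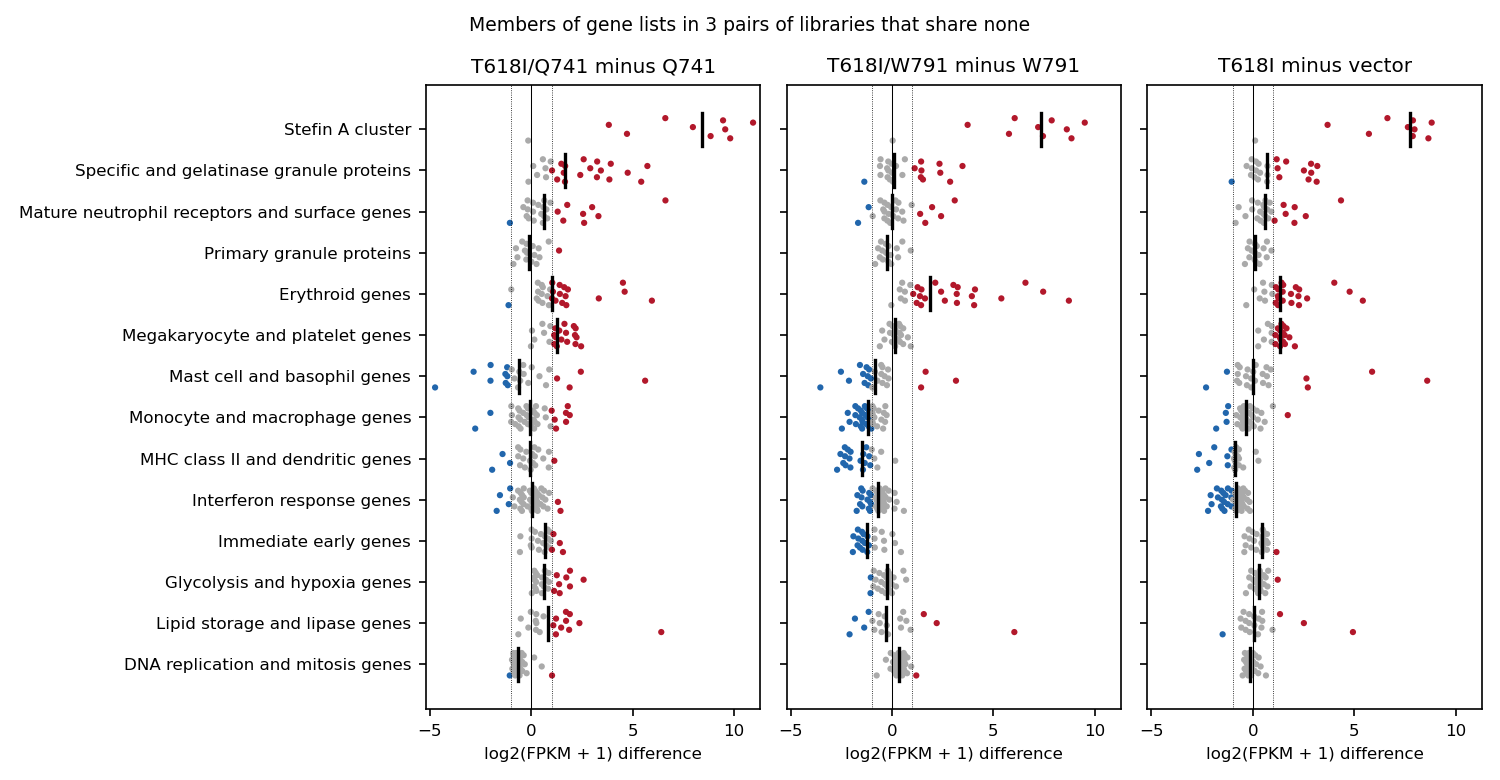
Log2(FPKM + 1) differences of the tested members of 14 gene lists in the 3 pairs, with 1 point per gene (red 2-fold higher, blue 2-fold lower) and a black bar at each list median. Stefin A genes lie far right in all 3 panels, while the monocyte, MHC class II, immediate early and replication lists have their medians in different places in the T618I/Q741 and T618I/W791 panels.

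The pairs T618I/Q741 with Q741, T618I/W791 with W791 and T618I with vector share no library. Of the 530 genes higher in T618I/Q741 against Q741, 155 were also higher in T618I/W791 against W791, which is 29.2% of the first list and 59.2% of the second (262 genes). With T618I against vector 214 were shared, 40.4% of the 530 and 70.2% of the 305 in that pair, and 116 were higher in all 3 pairs. Of the 211 lower genes, 89 were lower in T618I/W791 against W791 (42.2%, and 18.7% of the 477 there), 49 in T618I against vector (23.2%, and 34.5% of 142), and 38 in all 3. Across genes the differences of the Q741 pair correlated with those of the W791 pair at r = 0.31 and with those of T618I against vector at r = 0.61. These values are descriptions over 11188 genes that are not independent replicates.

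**Figure D5:**
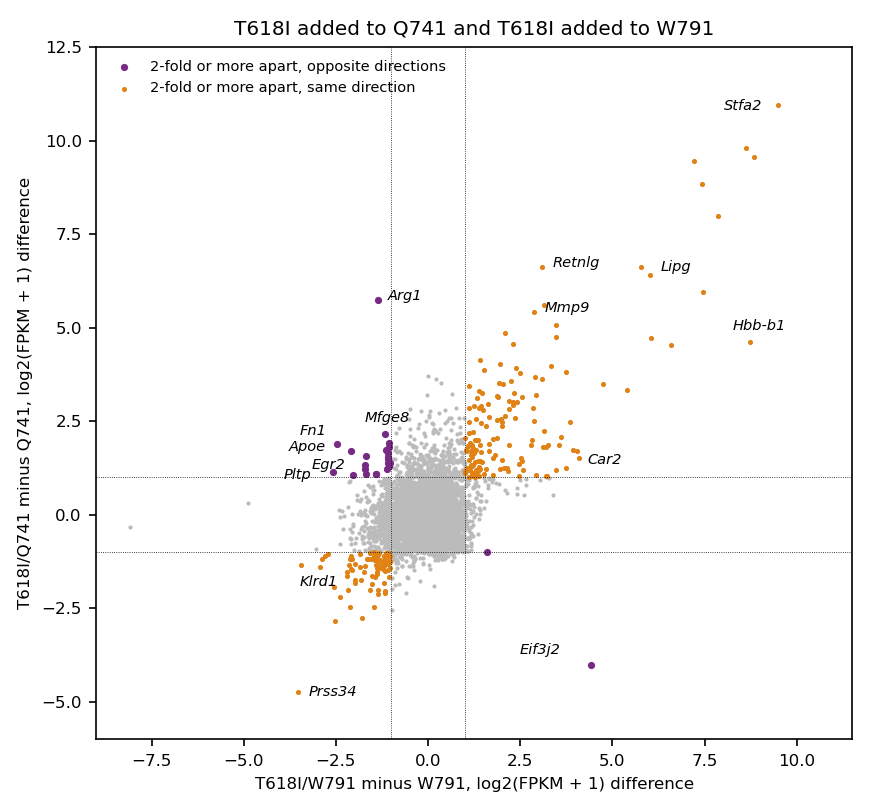
Each point is a gene, with its log2(FPKM + 1) difference between T618I/Q741 and Q741 on the y axis and between T618I/W791 and W791 on the x axis; small nucleolar and Cajal body RNA genes are left out. Orange genes were 2-fold apart in the same direction in both pairs, and purple genes, with Arg1, Fn1 and Apoe among them, in opposite directions.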

How the data were processed

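The authors deposited 1 table of gene symbols with values for 6 libraries and no unit in its header. The deposited values were read as FPKM because TopHat, Cufflinks and mm10 appear, without roles, in the submitters' processing notes. For versions, annotation and strand use, nothing is given in the sources used here. Libraries were TruSeq stranded mRNA, per the labels' protocols. Columns of the double mutants were matched to titles by their letters. Of 23444 rows, 27 had a date for a symbol and were left out. Differences are on log2(FPKM + 1) without further scaling, which understates low genes. A value at exactly 0 can be a failed estimate and is given as listed at 0. There were 1 library per construct and no test; a 2-fold threshold was used. The genes nearest the filter were 4632427E13Rik (second-highest FPKM 1.00028) inside and Csgalnact1 (0.999676) outside. Named genes were the 20 highest and 20 lowest differences at 5 FPKM or more, Csf3r, up to 5 members per list, and the genes furthest apart between or most alike across the pairs, with other members of the 31 lists added as examples. Predicted genes, microRNAs and small RNAs were left out of that rule. The comparison, the members and the lists were chosen with earlier results of these data known. Depth and copies used GENCODE M21 (95.0% of symbols matched), and promoters, 250 bases before to 50 after a start, came from RefSeq on GRCm38.p6. Python 3.11.15 with pandas 2.3.3 was used, and the calls were checked on simulated data.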

Additional observations from a re-analysis of the deposited data

Results flagged for a closer look

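Some genes lay in opposite directions in the 2 truncation pairs: 26 genes were higher in T618I/Q741 than in Q741 and lower in T618I/W791 than in W791, each by 2-fold or more, and 4 genes did the reverse. The 26 are 4.91% of the 530 higher genes, near the 4.26% of all genes that were lower in the W791 pair, and the 4 are 1.90% of the 211 lower genes, near the 2.34% of all genes that were higher there, so the numbers themselves are close to the background. With 1 library a side this difference between the pairs was not tested. Among the named genes, the log2 differences of T618I/Q741 against Q741 were 5.73 for Arg1, 1.91 for Aldoc, 1.90 for Fn1, 1.71 for Apoe, 1.56 for Egr2, 1.31 for the interferon-inducible gene Ifi27l2a, 1.13 for the phospholipid transfer protein gene Pltp and 1.10 for Junb. In T618I/W791 against W791 these were -1.37 for Arg1, -1.06 for Aldoc, -2.47 for Fn1, -2.09 for Apoe, -1.70 for Egr2, -1.71 for Ifi27l2a, -2.57 for Pltp and -1.40 for Junb. The reverse was seen for the gene AI506816 (-1.003 with T618I/Q741 against Q741 and 1.595 with T618I/W791 against W791) and for Eif3j2 (-4.01 and 4.41), whose reads are shared with Eif3j1. Chosen after their values were seen, Socs3 (1.07 and -1.41), Mfge8, which bridges apoptotic cells to phagocytes (2.14 and -1.17), and Ankrd37 (1.37 and -1.05) belonged to the 26. The small RNA genes Snora75 and Snora28 are also among the genes with opposite directions, and each is listed at 0 in some libraries.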

How the results depend on the processing

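The 530 higher and 211 lower genes and the median of -0.16 moved as follows. A pseudocount of 0.1 gave 717 higher and 442 lower genes and a median of -0.18, and a pseudocount of 5 gave 277 higher, 48 lower and -0.11. Without the filter on low values the median was 0, and with 5 FPKM or more in either library it was -0.18. Median-ratio scaling gave 131 lower genes and a median of -0.026, equal sums without the 50 highest genes a median of -0.19, and upper-quartile scaling -0.062. A 4-fold threshold left 127 higher and 18 lower. With W791 in place of Q741, an alternative added after seeing the data, 399 were higher and 210 lower, with a median of -0.18. With vector in its place 491 were higher and 334 lower, with a median of -0.19. With vector in place of Q741 Id3 (1.59), Ifi27l2a (-0.70), Apoe (-0.25) and Pltp (-0.51) had the opposite sign. Of the 104 named genes past 2-fold, 104 stayed past it with a pseudocount of 0.1, 78 with 5, 98 with median-ratio scaling, 88 with W791 and 86 with vector in place of Q741. Of the 5 lists whose median passed 2-fold, 5 stayed past it with a pseudocount of 0.1 or median-ratio scaling, 4 with a pseudocount of 5, 3 without the filter or with W791 in place of Q741, and 2 with vector in its place. The causes of these moves were not tested. No paired analysis was possible because the comparison of T618I/Q741 with Q741 is a single pair of libraries; the other backgrounds carry other constructs. Without replicates no difference can be set against a spread, and depth further limits genes near the filter.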
